A study of Mus musculus with 48 samples.

Results

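The comparison asks at which of 2 labelled times, 12 PM and 8 PM, restricting mice to timed meals moved the RNA of subcutaneous fat more, and for which genes the effect changed sign or size between them. It uses 16 of the 48 libraries of the study, 4 in each of 4 groups: ad-lib (AL) and twice-a-night (TAN) mice at 12 PM, and AL and TAN mice at 8 PM. For each gene the TAN effect is the log2 ratio of TAN to AL at a time, and the quantity tested is the difference of these effects, the effect at 12 PM minus that at 8 PM. A difference above 0 means that TAN stood higher against AL at 12 PM than at 8 PM.

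All 4 groups were male C57BL/6J mice labelled as 8 months old, and the RNA came from inguinal white adipose tissue (iWAT, the main subcutaneous depot, sWAT). TAN mice had 2 meals a night, the first open at 9 and closed at 11 p.m., the second open at 5 and closed at 7 a.m., for 6 months, under lights on at 8 a.m. and off at 8 p.m., and AL mice had food at all hours. TAN mice ate modestly less by the study's account, and a lower intake and the timing of meals cannot be told apart here. The series text names the material a stromal vascular fraction, while the study describes whole tissue, and all 12 adipocyte marker genes had counts in every one of the 16 libraries.

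White adipocytes take up glucose and make fatty acids from it after a meal: ATP citrate lyase and acetyl-CoA synthetase supply cytosolic acetyl-CoA, acetyl-CoA carboxylase commits it to malonyl-CoA, and fatty acid synthase, elongases and desaturases finish the chain. Insulin and carbohydrate, acting through SREBP1c and ChREBP, raise the genes of this route after feeding. The same cells run a circadian clock in which BMAL1 (Arntl) with CLOCK or NPAS2 binds E-boxes and drives Per, Cry, Nr1d1 and output genes such as Dbp, so that a time of day sets the level of many transcripts.

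Total counts were 17079789 to 26241169 per library. Genes with any count numbered 15271, 15866, 17272 and 18114 in TAN 8 PM replicates 1 to 4. They numbered 21364 to 22595 in AL 8 PM, 21770 to 23979 in TAN 12 PM and 17691 to 20819 in AL 12 PM. The summed CPM (read counts scaled to library size and TMM factor) of 12 lymphocyte markers were 19.6 and 13.1 in AL 12 PM replicates 1 and 3 and 56.6 in TAN 8 PM replicate 4, against 685 to 3665 in the other 13 libraries. The T cell marker sum was 3433 and 3567 CPM in TAN 8 PM replicates 1 and 2. It reached 1250 CPM in AL 8 PM and 1520 in the 32 libraries of the other times. The B cell sums of these 2 replicates, 1043 and 1124 CPM, lay within the 598 to 2260 of AL 8 PM. The skeletal muscle sum reached 3733 CPM in AL 12 PM replicate 3, 2180 in TAN 12 PM replicate 1, 1023 in AL 8 PM replicate 1 and 674 in TAN 8 PM replicate 3, against 30.2 to 495 elsewhere. Adipocyte marker sums ran from 11590 to 94330 CPM, with the lowest and the highest both in the TAN 8 PM group. In bulk RNA, fewer cells of a type and less RNA per cell cannot be told apart, and nothing says whether replicates differ beyond being separate samples, so that p-values measure the spread between these samples. The count table and the authors' mean FPKM carry the same times, but all 16 libraries were matched to an entry of the same diet and number, 12 h apart in time, in the study's own listing of 979 genes. The times below are therefore those on the sample labels.

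Of 19977 genes tested, the TAN effect was higher at 12 PM than at 8 PM in 252 (1.26%) and lower in 98 (0.491%), at an adjusted p under 0.05 and a log2 difference beyond 1 in edgeR's quasi-likelihood test. At 8 PM alone TAN raised 237 genes (1.19%) and lowered 1167 (5.84%), whereas at 12 PM alone it raised 17 (0.0851%) and lowered 1 (0.00501%). Among the called genes, 178 of the higher and 62 of the lower had a TAN effect with unadjusted p under 0.05 at 8 PM and not at 12 PM. The effect had opposite signs with such a p at both times in 61 of the higher and 34 of the lower, 95 in all (0.476%), and 13 higher and 2 lower genes had it at 12 PM and not at 8 PM. Most called genes thus had their TAN effect at 8 PM.

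A low count set many of these calls. Fewer genes had any count in the TAN 8 PM libraries (15271 to 18114) than in those of AL 8 PM (21364 to 22595). The part of this gap in the calls was not tested. In 142 of the 252 higher genes the TAN 8 PM libraries held at most 3 counts each, and in 53 the AL 12 PM libraries did, so that 109 higher and 95 lower genes had no group at that floor. Of the genes with opposite signs, 10 of the 61 higher and 32 of the 34 lower had no group at that floor. None of those had a 12 PM effect with an adjusted p under 0.05 in edgeR (lowest 0.195). In the 109 higher genes the median TAN effect was 0.35 at 12 PM and -1.51 at 8 PM. In the 95 lower genes the medians were -0.45 and 0.92. The genes were called on the difference of these effects, so that the gap between the medians follows in part from the call. Over all tested genes the median effects were 0.04 and -0.10, and the median difference was 0.20. The count rests on single libraries: leaving out each in turn gave 17 to 828 higher and 5 to 386 lower genes. It was 0 in both directions with the share of counts on TEC loci (a GENCODE class of non-spliced loci that still await experimental proof) as a covariate. That share was 0.0294% to 0.0394% in TAN 8 PM and 0.049% to 0.114% in the other groups of the comparison. A covariate that nearly sets 1 group apart takes up part of the contrast. A call lost with it therefore says little about a single gene or list. RLE scaling in place of TMM gave 270 higher and 192 lower genes, a different split. A fit of the 16 libraries alone, with fewer residual degrees of freedom, gave 6 higher and 1 lower. Of the 39 called genes that are named in this report, 2 kept their call in that fit.

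**Figure D1:**
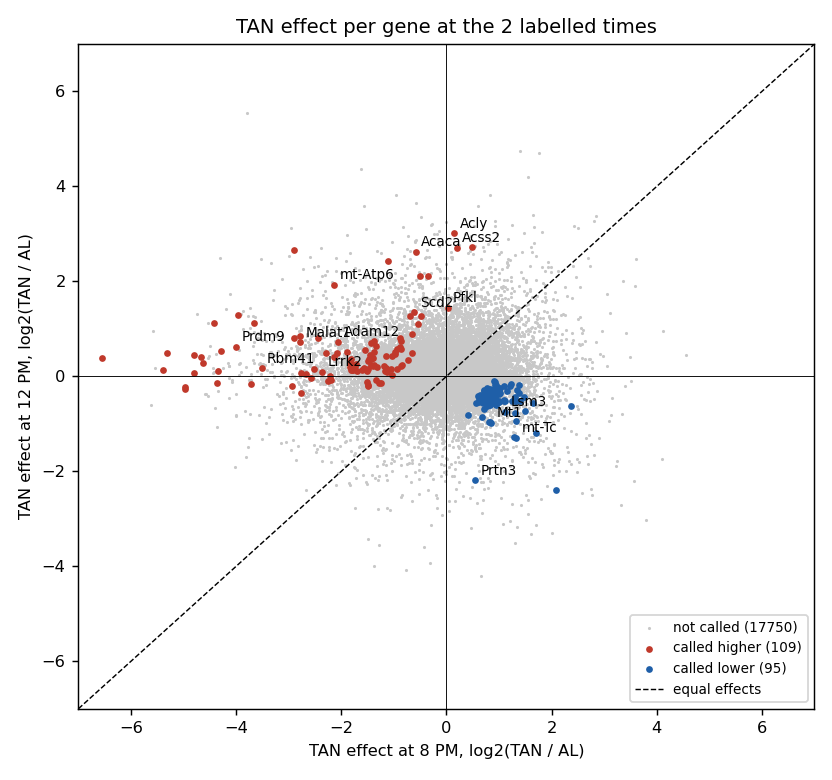
TAN effect of each gene at 8 PM (x axis) and at 12 PM (y axis), as log2 of TAN over AL, for genes with no group at the floor of 3 counts; red points were called higher at 12 PM (109), blue points lower (95), grey points not called, and the dashed line marks equal effects. The red points lie mostly left of 0 near a 12 PM effect of 0, apart from a small set with Acly, Acaca and Acss2 that lies high above it, and the blue points lie right of 0 and below it.

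Read by diet, the same numbers show where the change lay. From 8 PM to 12 PM within TAN, 1283 genes were higher at 12 PM (6.42%) and 362 lower (1.81%). Within AL, 0 genes passed (0%) in edgeR's quasi-likelihood test, while without adjustment, at p under 0.05 and a log2 change beyond 1, it was 388 up and 416 down, and DESeq2 called 39. In the 109 higher genes with no group at the floor the median change, 12 PM minus 8 PM, was 1.64 within TAN and -0.39 within AL. In the 95 lower genes it was -0.95 and 0.40. These genes were called on the difference of the same changes, so that the gap between the medians follows in part from the call.

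Enzymes of fatty acid synthesis made up a distinct set among the called genes, with TAN above AL at an unadjusted p under 0.05 at 12 PM and not at 8 PM. Of the 15 genes with an effect at 12 PM and not at 8 PM, 5 are enzymes of lipid synthesis, Acly, Acaca, Acss2, Scd2 and Lss, and 1 is a glycolytic enzyme, Pfkl; this set was read out after its values were seen. The promoters of Acly and Acss2 are shown because both enzymes make cytosolic acetyl-CoA and both stretches hold 4 GC boxes (GGGCGG on either strand, in capitals), the letters to which Sp1 binds beside SREBP at many lipogenic promoters. Each is the 250 bases before the RefSeq start on GRCm38.p6, on the strand of the gene. Acly lies at chr11:100528001-100528250 (minus strand), just before a gene of the files that spans chr11:100476353-100528000, and Acss2 at chr2:155517793-155518042 (plus strand), overlapping the start of a gene that the files place at chr2:155517948-155585724.
Acly: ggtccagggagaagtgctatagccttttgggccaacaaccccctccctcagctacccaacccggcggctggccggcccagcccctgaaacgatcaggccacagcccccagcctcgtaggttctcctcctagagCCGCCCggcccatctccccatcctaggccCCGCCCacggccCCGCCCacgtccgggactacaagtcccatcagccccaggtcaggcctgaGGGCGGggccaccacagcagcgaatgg
Acss2: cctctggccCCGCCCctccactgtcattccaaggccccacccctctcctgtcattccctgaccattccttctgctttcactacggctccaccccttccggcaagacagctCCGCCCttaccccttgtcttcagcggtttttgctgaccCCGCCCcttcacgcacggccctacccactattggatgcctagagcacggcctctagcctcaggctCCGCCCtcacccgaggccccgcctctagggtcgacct
A GC box stood in 11 of the 22 windows of the fatty acid synthesis list (10 of its 17 genes with a window) and in 32.7% of all 32851 windows of that length. It also stood in 15 of the 18 windows of core clock genes and 11 of the 14 of clock output genes, so that it is not particular to this list. An E-box (CACGTG) stood in 3 of the 22 (6.02% of all windows) and the sterol element TCACCCCA in 0 of the 22 (1.34% of all windows). A match or its absence describes these letters in this window only.

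Acly, the ATP citrate lyase that makes cytosolic acetyl-CoA from citrate, had 204, 190, 666 and 238 CPM in the 4 AL 12 PM libraries and 3094, 2376, 1596 and 3432 in the TAN 12 PM libraries. At 8 PM it had 272, 468, 259 and 550 CPM in AL and 230, 163, 451 and 876 in TAN. The groups stood apart at 12 PM, every TAN library above every AL library, and overlapped at 8 PM. The TAN effect was 3.02 ± 0.56 (SE, n = 4 per group; adjusted p = 0.00704 in edgeR) at 12 PM and 0.15 ± 0.52 at 8 PM, and the difference was 2.87 ± 0.74 (adjusted p = 0.038, edgeR). On the authors' scale per length, their mean FPKM of Acly was 60.3 in AL and 478 in TAN at 12 PM, and 72.0 and 81.3 at 8 PM.

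Acaca, the carboxylase that makes malonyl-CoA, had 157, 88.2, 396 and 333 CPM in AL and 1312, 1236, 1301 and 2163 in TAN at 12 PM. At 8 PM it had 256, 355, 251 and 625 CPM in AL and 143, 122, 226 and 503 in TAN. All TAN libraries lay above all AL libraries at 12 PM, while at 8 PM the ranges overlapped and the TAN mean of 249 CPM was below the AL mean of 372. The difference of 3.20 ± 0.83 (adjusted p = 0.038, edgeR) joined an effect of 2.62 at 12 PM, which had an adjusted p of 0.0859, to one of -0.58 at 8 PM.

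Acss2, which makes acetyl-CoA from acetate, had 115, 74.8, 125 and 81.5 CPM in AL and 503, 715, 412 and 965 in TAN at 12 PM, against 74.7, 167, 121 and 212 in AL and 87.4, 65.8, 198 and 308 in TAN at 8 PM. The TAN libraries were again all higher at 12 PM and mixed with AL at 8 PM, and the difference was 2.51 ± 0.69 (adjusted p = 0.048, edgeR). Scd2, a stearoyl-CoA desaturase, differed by 1.96 ± 0.51 (adjusted p = 0.0388), from 337 ± 98.9 CPM in AL to 861 ± 260 in TAN at 12 PM (mean ± SD, n = 4) and from 289 to 190 at 8 PM. Lss, the lanosterol synthase of the cholesterol route, differed by 1.76 ± 0.49 (adjusted p = 0.048), and Pfkl, the liver-type phosphofructokinase that commits sugar to glycolysis, by 1.43 ± 0.32 (adjusted p = 0.0299, edgeR). Pfkl had 28.6 to 50.4 CPM in AL and 78.7 to 136 in TAN at 12 PM, and 44.0 to 63.8 and 39.1 to 81.5 at 8 PM. Alone at 12 PM the effects of Acss2 and Pfkl passed (adjusted p = 0.0104 and 0.00131, edgeR). Those of Scd2 (1.35) and Lss (1.27) did not (0.2247 and 0.2285).

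Within the TAN 8 PM group all 6 of these enzymes were higher in replicates 3 and 4 than in replicates 1 and 2, and the adipocyte marker sum had the same order, with 17190, 11590, 60530 and 94330 CPM in replicates 1 to 4. The part of the marker sum in these values was not tested. Without replicates 1 and 2 the differences were 2.25 for Acly (adjusted p = 0.0718), 2.66 for Acaca (0.0716) and 1.90 for Acss2 (0.0956) in edgeR. The call of Acly and of Acaca held in 4 of 16 when libraries were left out singly, that of Acss2 in 2, of Scd2 and Lss in 3 and of Pfkl in 10.

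**Figure D2:**
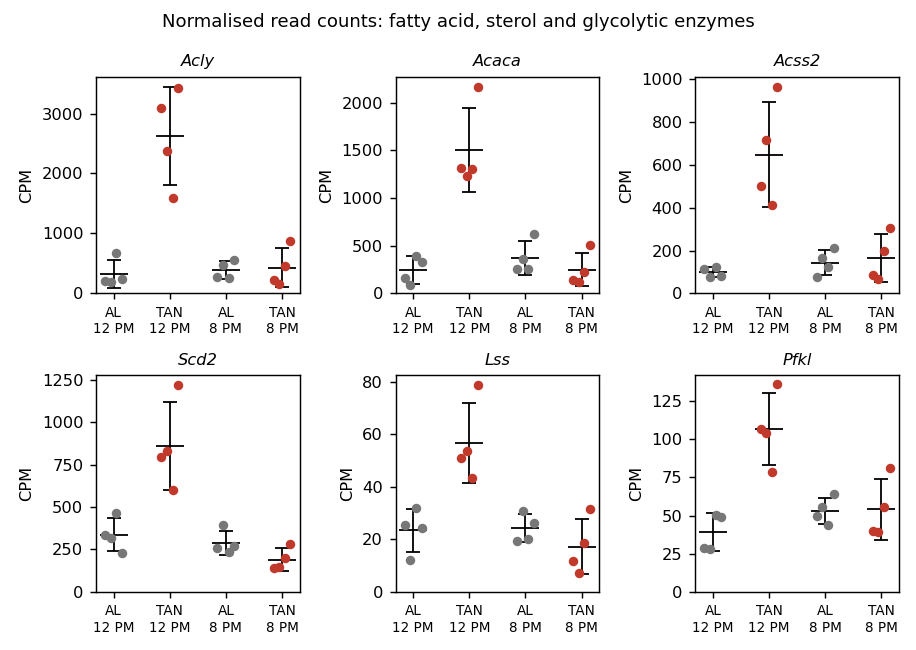
Normalised read counts (CPM, linear axis from 0) of 6 enzymes of fatty acid, sterol and sugar metabolism in the 4 groups; points are the 4 libraries, and bars the mean ± SD. For Acly, Acaca, Acss2, Scd2, Lss and Pfkl the TAN 12 PM libraries lie above all AL 12 PM libraries, and at 8 PM the diets overlap.

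Of the 19 genes of the fatty acid synthesis list that were tested, 4 were called higher (Acly, Acaca, Acss2, Scd2) and 0 lower, where 1.26% of all tested genes were called higher and 0.491% lower. Of the 19, 17 had a difference above 0, and the median difference was 1.23, beside 0.20 over all genes. Their median TAN effect was 0.93 at 12 PM, above 0 in all 19, and 0.17 at 8 PM, above 0 in 11. With the share of counts on TEC loci as a covariate, or without TAN 8 PM replicates 1 and 2, 0 of the 19 were called, with medians of 0.98 and 0.80. A fit of the 16 libraries alone also called 0 (median 1.28). With the lymphocyte sum as a covariate 13 were called higher (median 2.14), without the 3 libraries low in lymphocyte markers 9 (2.45), and without 1 library at a time 0 (in 12 of 16 fits) to 7, the most without TAN 8 PM replicate 4 (1.97). Among the members that missed the threshold, Elovl6, which elongates palmitate, differed by 2.98 (adjusted p = 0.0619), Fasn, the synthase itself, by 1.59 (0.217), and Me1, the malic enzyme that supplies NADPH, by 1.59 (0.223) in edgeR. For Elovl6 and Fasn the effect at 12 PM alone passed, 3.81 (adjusted p = 0.00609) and 2.62 (0.0402). Slc2a5, a fructose transporter, went from 1.12, 1.76, 3.02 and 1.51 CPM in AL to 49.8, 55.5, 18.9 and 73.8 in TAN at 12 PM, and from 2.61 to 7.30 in AL and 3.01 to 29.4 in TAN at 8 PM. Its effect of 4.74 at 12 PM passed (adjusted p = 0.00412), and its difference of 3.34 did not (0.0682, edgeR). Pcx, the pyruvate carboxylase that feeds citrate export, had an effect of 2.03 at 12 PM (adjusted p = 0.0339) and a difference of 1.58 that did not pass (0.112).

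The metabolic elasticity genes, a set defined in earlier work that the study examined here, held 20 tested genes, of which 3 were called higher (Acly, Acss2, Scd2), 17 had a difference above 0, and the median was 1.2. It shares Acly, Acss2 and Scd2 with the fatty acid synthesis list. Glycolysis had 2 of 24 called higher, Pfkl and Pfkp, with a median of 0.14. Cholesterol synthesis had 1 of 22 (Lss), with a median of 0.00 and 11 genes on each side of 0, so that Lss was not accompanied by the rest of its route. Triglyceride synthesis had 0 of 14 called (median 0.28), fatty acid oxidation 0 of 19 (0.09) and the citrate cycle 0 of 18 (-0.17).

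The other 4 times are set beside 12 PM and 8 PM for 3 of the called enzymes. The TAN effect of Acly was 2.12, 3.02, 3.01, 0.15, 1.86 and 1.98 at 8 AM, 12 PM, 4 PM, 8 PM, 12 AM and 4 AM, each with an SE of 0.52 to 0.56. Acaca had 1.26, 2.62, 2.25, -0.58, 1.27 and 1.34, and Scd2 1.77, 1.35, 1.48, -0.61, 1.40 and 0.20. The value at 8 PM was the lowest of the 6 for each, and only 12 PM against 8 PM was tested here. These enzymes were called on that difference, so that a low 8 PM value follows in part from the call. Among members that were not called, Elovl6 was also lowest at 8 PM (0.83), while Fasn had 1.03 at 8 PM and 0.98 at 4 AM. The effects of Acly, Acaca and Scd2 all passed alone at 4 PM (adjusted p of 0.006, 0.0156 and 0.0122, edgeR).

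**Figure D3:**
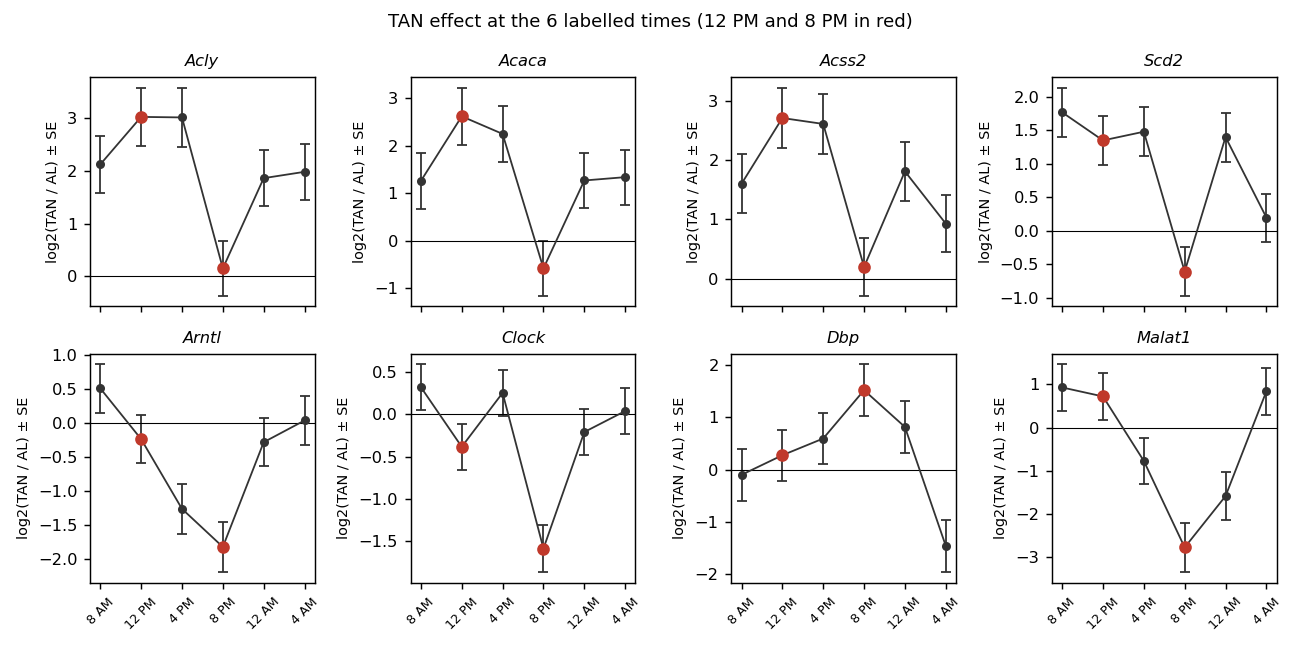
TAN effect, log2 of TAN over AL ± SE from the fit, at the 6 labelled times for 4 lipogenic enzymes, 3 clock genes and Malat1 (4 libraries per diet and time); 12 PM and 8 PM are in red, and each panel has its own y axis. For Acly, Acaca, Acss2, Scd2, Arntl, Clock and Malat1 the 8 PM value is the lowest of the 6, and for Dbp it is the highest.

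The remaining genes with an effect at 12 PM and not at 8 PM, named here after their values were seen, included P2rx5, an ATP-gated ion channel, which went from 4.05 ± 2.04 CPM in AL to 17.5 ± 5.83 in TAN at 12 PM (difference 2.61, adjusted p = 0.0333). Parm1, a mucin-like membrane protein, went from 21.1 ± 9.86 to 91.9 ± 27.7 CPM (difference 2.47, adjusted p = 0.0338; edgeR, SD with n = 4 each). Among others of this kind, Gm37305 and Gm5182 are predicted genes with no role given here, and Prss35 had at most 3 counts in every AL 12 PM library and every TAN 8 PM library. In the opposite direction, Prtn3, the proteinase 3 of neutrophil granules, had 54.3, 40.6, 66.5 and 27.6 CPM in AL and 10.7, 8.76, 10.1 and 12.0 in TAN at 12 PM, and 5.11 to 21.8 in AL and 5.33 to 46.5 in TAN at 8 PM. All TAN libraries lay below all AL libraries at 12 PM, with a difference of -2.73 ± 0.62 (adjusted p = 0.0299), while the neutrophil list as a whole had 1 of 12 called, a median of 0.59 and 7 of 12 above 0. Pdp1, the phosphatase that activates pyruvate dehydrogenase, went from 35.0 ± 10.2 to 19.9 ± 2.93 CPM at 12 PM and differed by -1.21 (adjusted p = 0.0338, edgeR). Its effect at 12 PM did not pass alone (adjusted p = 0.208, edgeR).

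The larger class was set at 8 PM, where TAN lowered a group of long transcripts. Malat1, a long non-coding RNA held in nuclear speckles, had 631, 799, 567 and 622 CPM in AL and 98.3, 101, 59.0 and 124 in TAN at 8 PM. At 12 PM it had 203, 303, 501 and 959 CPM in AL and 777, 660, 1117 and 688 in TAN. The diets stood far apart at 8 PM and overlapped at 12 PM, with effects of -2.78 (adjusted p = 0.00351) and 0.72, and a difference of 3.50 ± 0.78 (adjusted p = 0.0271, edgeR). Of the 9 nuclear-retained RNAs tested, Malat1 was the 1 called, 8 had a difference above 0 and the median was 2.14. Their median TAN effect was -2.19 at 8 PM and 0.13 at 12 PM.

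Lrrk2, a large kinase of vesicle traffic, had 96.3, 66.9, 93.3 and 49.2 CPM in AL and 11.8, 19.2, 11.7 and 16.3 in TAN at 8 PM, and 33.0 to 83.4 in AL and 44.2 to 68.8 in TAN at 12 PM. Ago4, an Argonaute protein of the small RNA pathway, had 16.4, 17.9, 15.4 and 13.4 CPM in AL and 5.06, 2.93, 8.48 and 6.20 in TAN at 8 PM, and 6.43 to 13.4 and 11.5 to 13.6 at 12 PM. Both had all TAN libraries below all AL libraries at 8 PM, with differences of 2.47 ± 0.48 (adjusted p = 0.0102) and 1.85 ± 0.32 (adjusted p = 0.00618, edgeR). Adam12, a membrane metalloprotease, had 12.8, 19.5, 14.4 and 27.7 CPM in AL and 2.73, 2.13, 7.53 and 5.52 in TAN at 8 PM and differed by 2.79 ± 0.53 (adjusted p = 0.007). Zfp507, a zinc finger protein, went from 14.8 to 15.9 CPM in AL down to 2.18 to 5.45 in TAN at 8 PM and differed by 2.54 ± 0.51 (0.0149). The calls of Lrrk2, Ago4, Adam12 and Zfp507 held in all 16 fits that left out 1 library, and that of Malat1 in 13. These fits kept the other 32 libraries of the study for the spread. With the TEC share as a covariate, which nearly sets the TAN 8 PM group apart, none of these 5 passed, with differences of 0.80 to 1.85.

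Further members with the largest differences were at the edge of detection in TAN at 8 PM. Prdm9, the methyltransferase that places meiotic recombination, had 6.33 to 9.33 CPM in AL and 0, 0, 0.90 and 1.18 in TAN at 8 PM (difference 4.62, adjusted p = 0.0333). Rbm41, an RNA-binding protein, had 7.35 to 8.96 CPM in AL and 0 to 1.35 in TAN (3.69, 0.0333), Akap17b, an anchor of protein kinase A, 6.91 to 10.09 and 0 to 2.08 (2.83, 0.0338), and Plekhm3, a pleckstrin homology protein, 24.8 to 41.0 and 9.30 to 13.4 (1.75, 0.0252; edgeR). In each of these 4 the diets overlapped at 12 PM.

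By biotype, the counts of called genes were as follows, with no test between biotypes. Of 702 TEC loci tested, 29 were called higher (4.13%) and 0 lower, with a median difference of 2.60. Antisense genes had 21 of 858 higher (2.45%) and lincRNAs 18 of 858 (2.10%), against 138 of 15265 protein-coding genes (0.904%). Immunoglobulin segments had 9 of 196 (4.59%) and genes with a zinc finger symbol 6 of 343 (1.75%). Few of these calls had all groups above the floor of 3 counts: 5 of 29 for TEC loci, 4 of 21 for antisense genes, 4 of 18 for lincRNAs and 1 of 9 for immunoglobulin segments, against 87 of 138 for protein-coding genes and 5 of 6 for zinc finger symbols. The sample protocol describes both strand-marking and unmarked libraries without saying which was made, so that reads of an antisense gene and its partner cannot be told apart. TEC loci took 0.0294% to 0.0394% of counts in the TAN 8 PM libraries and 0.049% to 0.114% in the other 12, with no overlap, but 0.0325% to 0.114% in the 32 libraries of the other times, and what this share measures in the tissue was not tested.

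**Figure D4:**
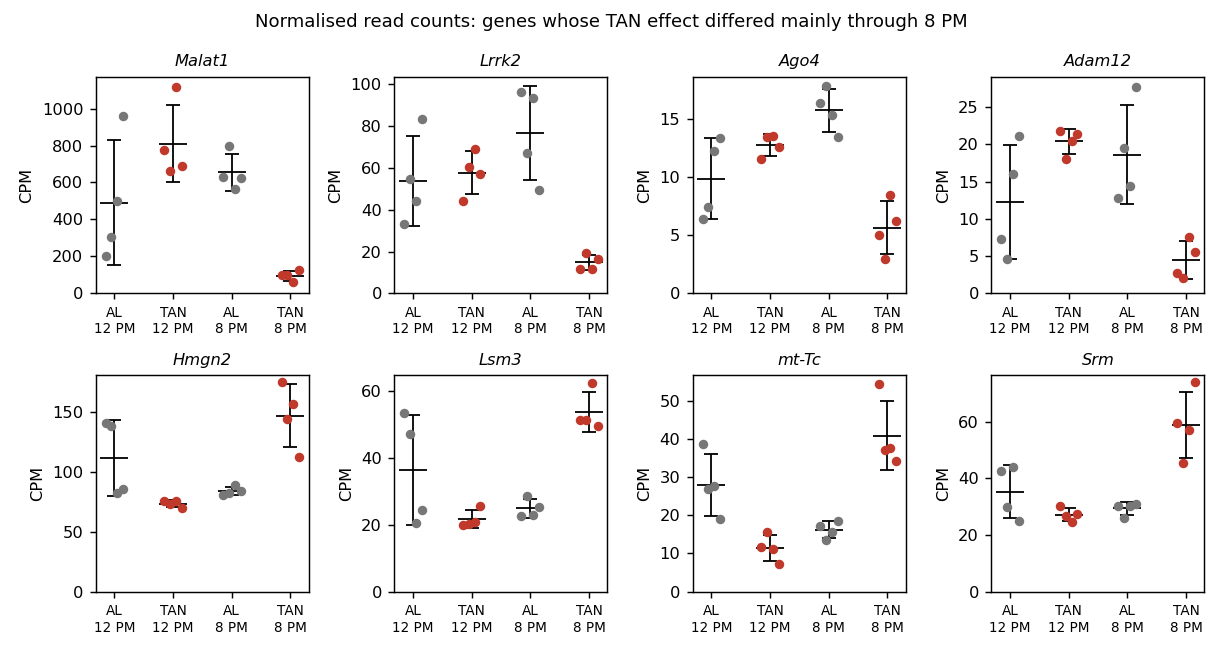
Normalised read counts (CPM, linear axis from 0) of 4 genes called higher (Malat1, Lrrk2, Ago4, Adam12) and 4 called lower (Hmgn2, Lsm3, mt-Tc, Srm) in the 4 groups; points are the 4 libraries, and bars the mean ± SD. The TAN 8 PM libraries lie below all AL 8 PM libraries in the first 4 and above them in the other 4.

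Genes called lower, for which TAN stood higher at 8 PM and lower or level at 12 PM, were mostly short transcripts. Lsm3, a subunit of the Lsm ring on U6 snRNA, had 22.6, 28.6, 23.0 and 25.3 CPM in AL and 51.4, 51.4, 62.5 and 49.5 in TAN at 8 PM, and 53.4, 47.1, 20.4 and 24.4 in AL and 19.99, 20.4, 20.8 and 25.6 in TAN at 12 PM. TAN was above AL in every library at 8 PM, while at 12 PM 2 AL libraries were high and the others level with TAN, and the difference was -1.85 ± 0.35 (adjusted p = 0.00618, edgeR). Hmgn2, a nucleosome-binding protein, had 80.8, 82.9, 89.0 and 84.0 CPM in AL and 176, 144, 157 and 113 in TAN at 8 PM, and 141, 138, 82.8 and 85.7 in AL and 75.9, 73.3, 75.9 and 69.7 in TAN at 12 PM. It reversed without overlap at both times, with effects of 0.81 at 8 PM and -0.60 at 12 PM and a difference of -1.41 ± 0.26 (adjusted p = 0.00618). Its processed pseudogene Hmgn2-ps1, which shares sequence with it, was also called (-2.07), so that the counts of both are uncertain. Of the effects of Lsm3 and Hmgn2, those at 8 PM passed alone (adjusted p = 0.00525 and 0.0067) and those at 12 PM did not (0.485 and 0.411).

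The mitochondrial tRNA gene mt-Tc (tRNA for cysteine) reversed in the same way, with 17.2, 13.6, 15.6 and 18.6 CPM in AL and 54.2, 37.0, 37.7 and 34.2 in TAN at 8 PM, and 38.6, 26.8, 27.7 and 18.9 in AL and 11.7, 15.7, 11.1 and 7.29 in TAN at 12 PM. The groups did not overlap at either time, and the difference was -2.62 ± 0.47 (adjusted p = 0.00618, edgeR). Alone, its effect passed at 8 PM (1.33, adjusted p = 0.0114) and not at 12 PM (-1.29, adjusted p = 0.195, edgeR). With the offset for gene length its difference was -4.89 (adjusted p = 0.000552, edgeR). The gene is 66 bases long and the libraries were made from poly-A RNA, so that what its counts measure is uncertain. Srm, the spermidine synthase, had 26.1 to 31.1 CPM in AL and 45.4 to 73.9 in TAN at 8 PM and differed by -1.38 ± 0.27 (adjusted p = 0.0115). Wdr83os, a small membrane protein of the endoplasmic reticulum, had 31.7 to 34.7 and 67.8 to 78.0 CPM at 8 PM (-1.46, 0.0168), and H2afv, a histone H2A.Z variant, 47.3 to 54.3 and 81.5 to 135 (-1.59, 0.0168; edgeR). The calls of Lsm3, Hmgn2, mt-Tc and Srm held in all 16 fits that left out 1 library, and none passed with the TEC share as a covariate.

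Among the other genes called lower, Hilpda, which binds lipid droplets and inhibits lipolysis, differed by -1.77 (adjusted p = 0.0355), Mt1, a metallothionein that glucocorticoids induce, by -1.83 (0.0417), Lmo4, a LIM-domain cofactor, by -1.80 (0.0338), and Rprml, a reprimo-like protein, by -2.89 (0.038). Nme4, a mitochondrial nucleoside diphosphate kinase, differed by -2.24 (0.0489) and Psma5, a proteasome subunit, by -1.18 (0.0404). Gng5, a G protein gamma subunit, differed by -1.43 (0.0252), Myl12a, a myosin light chain, by -1.54 (0.0333), Gpn3, a GTPase of RNA polymerase assembly, by -1.17 (0.0168), Krtcap2, an oligosaccharyltransferase subunit, by -1.41 (0.0195), and Smim11, a small membrane protein, by -1.43 (0.0333), all in edgeR. With libraries left out singly, the calls of Mt1 and Nme4 held in 3 of 16 fits, of Hilpda and Psma5 in 6, of Rprml in 7, of Lmo4 in 8, of Myl12a and Smim11 in 9, of Gng5 in 10, of Krtcap2 in 13 and of Gpn3 in 15. Without the 3 libraries low in lymphocyte markers, Mt1 differed by -0.61 and Rprml by -0.86, and neither passed. For Mt1, Lmo4 and Rprml the TAN 8 PM replicates 3 and 4 were the high ones, for Lmo4 263 and 278 CPM against 75.4 and 70.7 in replicates 1 and 2.

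In the higher direction the reversals included Pfkp, the platelet-type phosphofructokinase, which had 82.8 to 107 CPM in AL and 114 to 145 in TAN at 12 PM, and 82.8 to 106 in AL and 46.5 to 73.6 in TAN at 8 PM. It stood apart in opposite directions at the 2 times, with a difference of 1.15 ± 0.29 (adjusted p = 0.0355, edgeR). Pfkl and Pfkp, isozymes of 1 step, were thus both called, the first through 12 PM and the second with opposite signs at the 2 times. Alone, the effect of Pfkp passed at 8 PM (-0.66, adjusted p = 0.0345) and not at 12 PM (0.50, adjusted p = 0.605, edgeR). With the offset for gene length the difference of Pfkp was 0.16 (adjusted p = 0.782, edgeR). Snrnp70, a U1 snRNP protein, differed by 1.62 (adjusted p = 0.0426) and Anxa11, an annexin, by 1.5 (0.0333), and their calls held in 3 and 8 of 16 fits with libraries left out singly, that of Pfkp in 6. The difference of mt-Atp6, a mitochondrial ATP synthase subunit, was 4.07 (0.0408), but its TAN 12 PM libraries had 36.9, 43.7, 49.6 and 492 CPM, and without replicate 4 the difference was 2.20 (adjusted p = 0.176, edgeR). The call held in 3 of 16 fits with libraries left out singly. Mitochondrial sequences have near-identical copies in the nuclear genome, so that its counts are uncertain.

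Gene length moved with the direction of the difference. Protein-coding genes with a mean of at least 1 CPM over the 16 libraries were split into 5 bins of near-equal size by the length given in the files. The bins ran from 255 to 2451 bases in the shortest to 7523 to 123179 in the longest. The median TAN effect at 8 PM was 0.43, 0.18, 0.02, -0.19 and -0.51 from the shortest to the longest bin, and at 12 PM it stayed between -0.12 and 0.06. The shortest bin held 4 genes called higher and 52 called lower, and the longest 47 and 0. Among protein-coding genes with no group at the floor, the median length was 7657 bases for the 87 called higher, 1855 for the 82 called lower and 4281 for the 14383 not called. With an offset for gene length, 474 genes were called higher and 1783 lower, and the differences of Acly and Acaca were 2.45 and 2.18 and still passed (adjusted p = 0.0213 and 0.026, edgeR). Those of Acss2 (1.70), Scd2 (1.45), Lss (0.94) and Pfkl (0.87) did not.

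The same contrast in single libraries, the median log2 deviation of the longest bin minus that of the shortest, was -0.78 to -0.46 in TAN 8 PM, 0.21 to 0.42 in AL 8 PM, -0.51 to 0.64 in AL 12 PM and 0.04 to 0.64 in TAN 12 PM. The TAN 8 PM libraries did not overlap those of AL 8 PM or TAN 12 PM, and among the other 32 libraries values reached -1.02, so that the group is not alone at that end. Cytosolic ribosomal protein genes, which are short, took 18%, 18.9%, 7.27% and 3.30% of counts in the 4 TAN 8 PM libraries and 2.61% to 8.19% in the other 12. Of 31 such genes on the list, 0 were called in edgeR (26 lower at an unadjusted p under 0.05; 3 called lower by DESeq2), all 31 had a difference below 0, and the median was -1.41. The edgeR count was 31 lower with the lymphocyte sum as a covariate, 26 with the offset for gene length, 24 without the 3 libraries low in lymphocyte markers and 14 without TAN 8 PM replicate 4. That median was -0.34 without TAN 8 PM replicates 1 and 2, -0.39 with the TEC share as a covariate, and stayed below 0 under every alternative. Whether RNA quality, library preparation or the tissue set these shares was not tested.

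**Figure D5:**
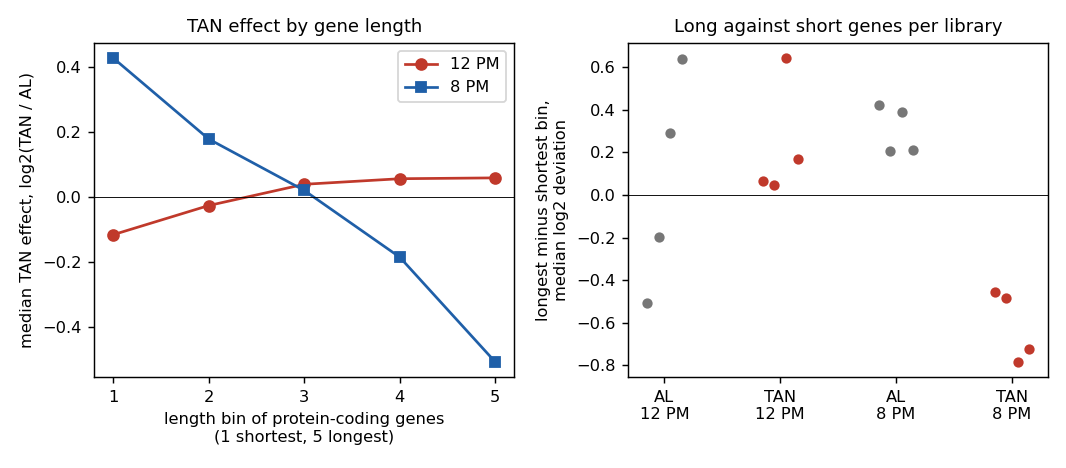
Left, median TAN effect (log2 of TAN over AL) at 12 PM and 8 PM in 5 bins of protein-coding genes by length, shortest to longest; right, for each of the 16 libraries, the median log2 deviation of the longest minus the shortest bin. The 8 PM line falls from 0.43 to -0.51 while the 12 PM line stays between -0.12 and 0.06, and the 4 TAN 8 PM points lie at -0.78 to -0.46.

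Clock genes gave 1 called gene, Npas2, the partner of BMAL1 that can stand in for CLOCK. It had 14, 4, 6 and 4 counts in AL and 0, 0, 0 and 0 in TAN at 8 PM, and 54, 14, 30 and 55 counts in AL and 59, 41, 104 and 57 in TAN at 12 PM. No fold is given, since 0 counts in a library may stand for as many as 3, and the adjusted p of the difference was 0.038 in edgeR, a call that held in 5 of 16 fits with libraries left out singly. Arntl (BMAL1) had 20.4, 17.9, 14.9 and 8.04 CPM in AL and 5.77, 7.14, 2.94 and 1.47 in TAN at 8 PM, and 18.9 to 26.9 in AL and 17.1 to 21.3 in TAN at 12 PM. Clock had 72.0 to 108 CPM in AL and 22.7 to 40.6 in TAN at 8 PM. Both were lower in TAN at 8 PM without overlap (effects -1.82, adjusted p = 0.00321, and -1.59, 0.000936), while their differences of 1.58 and 1.21 did not pass (0.0759 and 0.0736, edgeR). The core clock list as a whole had 1 of 14 called, 11 above 0 and a median of 0.39, which turned to -0.04 without TAN 8 PM replicates 1 and 2 and to -0.21 with an offset for gene length. Per2, Cry1 and Nr1d1 had differences of 0.04, -0.33 and -0.38, none past the test.

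Clock output genes tended to the other side of 0 with none called. Of 13 tested, 11 had a difference below 0, with a median of -1.03. DESeq2 called 1, and without adjustment 5 passed p under 0.05 on the lower side in edgeR. The median was 0.09 without the 3 libraries low in lymphocyte markers. Dbp, a PAR bZIP output factor, had 25.03, 32.9, 54.8 and 65.2 CPM in AL and 60.6, 45.6, 145 and 259 in TAN at 8 PM, an effect of 1.52 that passed alone (adjusted p = 0.0416), with a difference of -1.25 that did not (0.301, edgeR). The TAN 8 PM libraries of Dbp overlapped those of AL, and replicates 3 and 4 were the high ones, as for the lipogenic enzymes. Ciart, a repressor of the clock, had 1.27 to 2.39 CPM in AL and 1.60 to 23.5 in TAN at 8 PM (difference -1.97, adjusted p = 0.406), and Bhlhe41, another E-box repressor, 9.20 to 17.8 and 13.2 to 73.2 (-1.90, 0.117).

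The promoters of Ciart and Bhlhe41 are shown because they carry the E-box of the clock (CACGTG, in capitals, a palindrome read alike on both strands), 3 copies in Ciart and 1 in Bhlhe41. They are the 250 bases before the RefSeq start on GRCm38.p6, at chr3:95882229-95882478 and chr6:145865421-145865670, both on the minus strand and given in the direction of the gene.
Ciart: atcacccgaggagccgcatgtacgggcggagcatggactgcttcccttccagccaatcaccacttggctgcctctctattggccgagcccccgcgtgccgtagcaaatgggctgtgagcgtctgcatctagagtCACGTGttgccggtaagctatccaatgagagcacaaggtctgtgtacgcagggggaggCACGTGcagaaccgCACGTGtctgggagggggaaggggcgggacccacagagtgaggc
Bhlhe41: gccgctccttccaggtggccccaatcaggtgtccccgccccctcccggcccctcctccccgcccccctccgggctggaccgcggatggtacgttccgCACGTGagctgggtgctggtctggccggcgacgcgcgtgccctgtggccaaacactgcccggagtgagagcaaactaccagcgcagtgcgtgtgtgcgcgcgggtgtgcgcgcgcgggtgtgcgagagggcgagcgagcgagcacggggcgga
An E-box stood in 6 of the 14 windows of clock output genes (of Bhlhe41, Ciart, Coq10b, Lonrf3 and Tef), in 2 of the 18 windows of core clock genes (of Cry1 and Per1) and in 6.02% of all windows. Of these 5 output genes, Lonrf3 had a difference above 0 (1.98, adjusted p = 0.35) and Tef one of -0.75 (0.392), so that genes with the motif lay on both sides of 0 and none passed.

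The AL libraries bear on the labels of time themselves. Across the labels 8 AM, 12 PM, 4 PM, 8 PM, 12 AM and 4 AM the mean AL level of Nr1d1, the REV-ERB alpha repressor that peaks in the light phase of mice, was 16.4, 54.1, 92.3, 17.6, 3.63 and 34.1 CPM. Per2, which peaks around dusk, had 3.68, 4.80, 17.2, 21, 20.7 and 5.79 CPM in the same order. Both profiles peaked in the afternoon or evening by the sample labels, and under the study's listing of the same libraries they would stand 12 h away.

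Of 45 gene lists, 12 held a called gene, 14 called higher and 4 called lower counting repeats, out of 720 memberships tested. These are 1.94% and 0.556% of the memberships, near the 1.26% and 0.491% of all tested genes. The other 33 lists with 498 memberships held no called gene. The 4 called lower were Hilpda (lipolysis), Mt1 (glucocorticoid targets), Psma5 (proteasome) and Prtn3 (neutrophil). The proteasome list had 1 of 31 called, 26 below 0 and a median of -0.59, and nuclear-encoded subunits of oxidative phosphorylation 0 of 26 called, 22 below 0 and a median of -0.41. Mitochondrially encoded genes had 1 of 13 called (mt-Atp6), 11 above 0 and a median of 0.99, which is the opposite sign. RNA-binding and splicing genes had 1 of 29 called (Snrnp70), 23 above 0 and a median of 0.47. In the unfolded protein response list 0 of 23 were called, with a median of -0.28, and the sensor Atf6 came near, with a difference of 1.32 (adjusted p = 0.06) and an effect of -1.37 at 8 PM that passed (0.0028, edgeR). Insulin signalling genes had 0 of 22 called and a median of -0.02, and thermogenesis genes 0 of 18 and 0.58.

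Markers of other cell types gave 1 called gene, Prtn3. B cell markers had 13 of 13 differences above 0 with a median of 1.72 and mast cell markers 8 of 8 with a median of 1.10, whereas T cell markers had 11 of 14 below 0 with a median of -0.57. Adipocyte markers had 11 of 12 below 0 and a median of -0.48, with Lep, the leptin gene, at -2.10 (adjusted p = 0.16, edgeR). Macrophage markers had a median of 0.04 over 15 genes, endothelial 0.72 over 12 and skeletal muscle 0.81 over 13. The T cell marker sum was 3433, 3567, 583 and 25.5 CPM in TAN 8 PM replicates 1 to 4. With this spread, and with 3 libraries nearly without lymphocyte markers and spread over 2 groups, these medians move with single libraries. Without those 3 libraries 560 genes were called higher and 246 lower, and with the lymphocyte sum as a covariate 1400 and 562.

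At the other 4 times the called genes split by time. For the 109 genes called higher with no group at the floor the TAN effect was above 0 in 97 at 8 AM and 105 at 4 AM, but in 21 at 4 PM and 22 at 12 AM, with medians of 0.45, 0.38, -0.60 and -0.51. For the 95 called lower it was above 0 in 5 at 8 AM and 0 at 4 AM, and in 81 at 4 PM and 87 at 12 AM, with medians of -0.38, -0.37, 0.41 and 0.37. Among all 17954 genes with no group at the floor, 49.9%, 49.2%, 47.9% and 43.8% had an effect above 0 at 8 AM, 4 AM, 4 PM and 12 AM. The libraries of these 4 times did not enter the contrast, although they share its estimate of the spread. By sign, 4 PM and 12 AM thus went with 8 PM for these genes, and 8 AM and 4 AM with 12 PM. The TEC share and the length contrast of the libraries split the same way. The median TEC share in TAN against AL was 0.0628% against 0.1% at 4 PM and 0.048% against 0.0908% at 12 AM, but 0.0859% against 0.0614% at 8 AM and 0.0914% against 0.0656% at 4 AM. The median of the longest minus the shortest bin was -0.03 against 0.53 at 4 PM and -0.41 against 0.27 at 12 AM, but 0.35 against -0.24 at 8 AM and 0.39 against 0.01 at 4 AM. The part of these measures in the signs was not tested.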

How the data were processed

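Poly-A RNA was primed with random hexamers for cDNA, and the deposited table holds raw counts per gene for each of the 48 libraries. A further deposited table holds FPKM that the authors averaged per diet and time, printed here only as the authors' mean FPKM. The submitters' processing notes name TopHat 1.3.3, DESeq2 1.20.0, limma and edgeR and the builds mm9, mm10 and GRCm38, with no role for each. Gene positions of the count table were those of GRCm38, with 98.3% of genes at the same position in GENCODE M21. The counting tool and strandedness are not given in the sources used here.

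Diet, time and replicate number came from the sample labels, with every column of sample values used. The tests used edgeR 4.0.16 (R 4.3.3). After filterByExpr (minimum count 10) and TMM scaling, a robust quasi-likelihood fit took all 48 libraries as 12 groups of diet and time with a common estimate of the spread (36 residual degrees of freedom). The contrast was (TAN 12 PM minus AL 12 PM) minus (TAN 8 PM minus AL 8 PM). A gene was called at a Benjamini-Hochberg adjusted p under 0.05 over all 19977 genes tested and an absolute log2 difference above 1. SE values were computed from the log2 difference and its test statistic. Of 54532 genes listed, 30172 had a count in the 16. The floor for a library without counts was set at 3 counts, which covers counting error only. 0 of 1128 pairs of libraries were identical.

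The genes named are the 8 with the largest difference in each direction and the 5 with the smallest p, among called genes with a mean of at least 5 CPM, at least 10 counts in all 4 libraries of a group, and a symbol that is no predicted gene, clone, pseudogene or receptor segment. Called members of the lists, or the 2 members with the smallest p, and up to 10 genes with opposite signs were added. Some genes that the rule picks are left out here. The comparison, its members and the gene lists were chosen with earlier results of these data known.

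Promoters came from RefSeq windows on GRCm38.p6, of which 250 bases before the start were searched on both strands for the E-box CACGTG, the RORE TAGGTCA, the D-box TTATGTAA, the GC box GGGCGG and the sterol element TCACCCCA. 109 of the 143 named genes had a window. On test data drawn from the means and library sizes of 19237 genes, the model recovered 30.4% of 112 genes changed by a log2 difference of 1.5 and 62.5% of 88 changed by 2, with 0 other genes called. Each gene was drawn independently, without the differences in makeup that the genes of a real library share. The 2 rates and the 0 other calls therefore need not hold for the real libraries.

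Alternatives were an open filter (any count), at least 10 counts in each of the 16 libraries, DESeq2 1.42.0, limma voom (limma 3.58.1), RLE scaling, mitochondrially encoded genes left out, a fit of the 16 libraries only, replicate number as a block, any size of difference, unadjusted p, covariates for lymphocyte and skeletal muscle markers and for the TEC share, and each library left out in turn. After the data were seen, 3 more were added: the 3 libraries low in lymphocyte markers left out, TAN 8 PM replicates 1 and 2 left out, and an offset for gene length.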

Additional observations from a re-analysis of the deposited data

Results flagged for a closer look

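The TAN effect differed between 12 PM and 8 PM by edgeR's quasi-likelihood test of the difference itself in 252 genes that were higher at 12 PM and in 98 that were lower.

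A library stood far from the other 3 of its group in 10 of 184 groups of 4 values looked at, and chance gives about 1 in 20. Acaca had 2163 CPM in TAN 12 PM replicate 4 against 1236 to 1312 in the other 3 libraries. Acly had 665.5 CPM in AL 12 PM replicate 3 against 190 to 238. For both enzymes the TAN 12 PM libraries still lay above all AL 12 PM libraries. Gng5 had 73.9 CPM in TAN 12 PM replicate 3 against 100.3 to 105, and Lmo4 79.93 CPM in TAN 12 PM replicate 1 against 100.3 to 104.5. Lsm3 had 25.57 CPM in TAN 12 PM replicate 4 against 19.99 to 20.8, and 62.45 CPM in TAN 8 PM replicate 3 against 49.5 to 51.4. The value of mt-Atp6 was 492.1 CPM in TAN 12 PM replicate 4 against 36.9 to 49.6.

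Of the library measures, the skeletal muscle marker sum was 3733 CPM in AL 12 PM replicate 3 against 37.3 to 105.8. The share of counts on TEC loci was 0.109% in TAN 12 PM replicate 3 against 0.0762% to 0.0795%, and the share on mitochondrially encoded genes was 3.57% in AL 12 PM replicate 2 against 5.20% to 5.45%.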

How the results depend on the processing

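Of the 39 named called genes, 0 turned direction under the alternatives in which they were tested, which left 35 with at least 10 counts in each of the 16 libraries and 37 without mitochondrially encoded genes. How many kept their call ranged from 0 of 39 (TEC share) to 39 of 39 (DESeq2, RLE scaling and without AL 12 PM replicate 4). The TEC share nearly sets the TAN 8 PM group apart, so that calls lost with it cannot be read gene by gene. The number that kept their call was 2 of 39 with the 16 libraries alone, and 1 of 39 when replicate number was a block in those 16. Counts of called genes moved much more. The numbers below are, in order, genes whose TAN effect was higher at 12 PM, genes for which it was lower, called genes with opposite signs, genes called at 12 PM, at 8 PM, within TAN and within AL, with 252, 98, 95, 18, 1404, 1645 and 0 as reported. With no filter on low counts they were 29, 12, 12, 17, 910, 1112 and 0, and with at least 10 counts in each of the 16 libraries 98, 190, 61, 22, 852, 1073 and 0, in which most differences were lower. DESeq2 gave 624, 356, 179, 46, 1896, 2222 and 39, and limma voom 1734, 173, 454, 25, 2524, 3341 and 0. RLE scaling gave 270, 192, 124, 19, 1416, 1669 and 0. The 16 libraries alone, with fewer residual degrees of freedom, gave 6, 1, 2, 0, 715, 676 and 0. At any size of difference the counts were 254, 114, 102, 18, 2333, 2458 and 0, and at an unadjusted p 2251, 676, 165, 586, 2976, 3385 and 804. With the lymphocyte sum as a covariate they were 1400, 562, 516, 81, 2291, 2824 and 0, with the muscle sum 106, 22, 30, 11, 1363, 1079 and 0, with the TEC share 0, 0, 0, 21, 171, 410 and 0, and with the lymphocyte sum and TEC share together 264, 100, 154, 152, 812, 1548 and 0. Of those chosen after the data were seen, leaving out the 3 libraries low in lymphocyte markers gave 560, 246, 200, 12, 2154, 3038 and 0, leaving out TAN 8 PM replicates 1 and 2 gave 791, 540, 276, 23, 1622, 520 and 0, and the offset for gene length 474, 1783, 637, 23, 1921, 2155 and 1. Without mitochondrially encoded genes the counts were 249 and 97. The cause of these shifts was not tested.

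Leaving out 1 library at a time gave 17 to 828 higher, 5 to 386 lower, 6 to 420 with opposite signs, 3 to 21 at 12 PM, 735 to 2145 at 8 PM, 682 to 2999 within TAN and 0 to 1 within AL. The higher count was 22, 24, 268 and 812 without AL 12 PM replicates 1 to 4, 70, 173, 17 and 108 without those of TAN 12 PM, 37, 130, 25 and 151 without those of AL 8 PM, and 49, 95, 96 and 828 without those of TAN 8 PM. The lower count was 7, 12, 155 and 386, then 23, 53, 5 and 36, then 12, 47, 11 and 38, and 22, 51, 39 and 290 in the same order.

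Replicate numbers were not taken to pair libraries: residuals of TAN and AL libraries that share a number correlated above 0.1 in 4 of 8 pairs, over 5000 genes (-0.586 to 0.844). The replicate number as a block gave 198, 61, 70, 19, 1311, 1653 and 0 with 48 libraries, and 1, 1, 1, 0, 609, 761 and 0 with the 16 libraries. At 17079789 or more counts per library, a log2 difference of 1.5 was recovered for 30.4% of changed test genes, so that many differences of that size would be missed. The test data held no differences shared by the genes of a library, so that the rate in the real libraries was not measured.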
